A study of Homo sapiens with 6 samples.

Results

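Small nucleolar RNA (snoRNA) host genes carry snoRNAs in their introns, and 32 of the 58735 genes in the deposited expression table of PANC-1 cells belong to the set described here. PANC-1 is a cell line from a human pancreatic ductal adenocarcinoma. The set holds every gene named SNHG followed by a number, together with GAS5, DANCR, ZFAS1, EPB41L4A-AS1, TAF1D, RC3H2, RACK1 and GNL3L. A gene was tested where its reads added up to 30 or more over the 6 samples, a filter that does not look at the groups, and 27 of the 32 genes passed it. The 6 RNA-seq libraries form a control group of 3, whose cells received the control siRNA (si-NC), and a METTL16-silenced group of 3 (si-METTL16), which the study describes as biological triplicates. Both groups are the same line and differ by the siRNA. One label field calls the control samples WT, while their titles say si-NC. Several METTL16 siRNAs belong to the study and the one used for sequencing is not given in the sources used here, so effects of an siRNA on other transcripts cannot be told apart from those of METTL16 loss.

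When the primary transcript of a host gene is spliced, the excised introns are trimmed into snoRNAs, which guide the chemical modification of ribosomal RNA. Box C/D snoRNAs guide 2′-O-methylation, box H/ACA snoRNAs guide pseudouridylation, and the related scaRNAs guide modification of spliceosomal RNAs in Cajal bodies. Many host transcripts encode no known protein, begin with a pyrimidine tract like that of ribosomal protein mRNAs, and are removed by nonsense-mediated decay once ribosomes engage them. METTL16 is a methyltransferase that places N6-methyladenosine on U6 snRNA and on hairpins of the MAT2A transcript. The letters TACAGAGAA, written as DNA, were searched for as its motif, and variants of them were not searched.

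The letters at the annotated starts of these genes are shown first, because many host genes are described as starting at C followed by pyrimidines. Starts of ribosomal protein genes, to which they are likened above, were not examined. The windows printed are examples and do not give the frequency of such a start. Each line gives 30 bases of GRCh38.p14 from RefSeq, 5′ to 3′ on the strand of the gene, from 6 bases before the annotated start. Capitals mark the first C followed by at least 4 pyrimidines at or after the start, within its first 10 bases, extended to the end of the pyrimidine run.
ZFAS1, chr20:49278636-49278665, plus strand: ttcgttCTTTCgcgtctgcggtgcccggag
SNHG5, chr6:85678710-85678739, minus strand: ttcggtCTTTTacgtcggccttcgcgagcg
SNHG12, chr1:28581850-28581879, minus strand: cagcgcCCTTTCTCCCCgccgcattcccgg
SNHG4, chr5:139274095-139274124, plus strand: cggctgCCCTTTCCCCTCCggcctctgccg
RACK1, chr5:181243883-181243912, minus strand: ttctctCTCTCTTTCactgcaaggcggcgg
SNHG17, chr20:38435305-38435334, minus strand: ggcctcagtCCTTCgccgtccctcgccgtc
SNHG1, chr11:62855862-62855891, minus strand: ttcgttctcatttttctactgctcgtggta
SNHG10, chr14:95534849-95534878, minus strand: tgccggagcctcatcctactgccttactat

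The RefSeq promoter table matched 28 of the 32 genes, 24 of them tested. Of those 24, 7 began at the annotated base with C and at least 4 further pyrimidines, which is 29.2%, against 5.36% of the 10800 promoters of tested genes and 4.07% of all 35116 promoters in the table. These 7 were ZFAS1, SNHG12, SNHG5, TAF1D, RACK1, SNHG19 and SNHG4. The RefSeq start is often not the gene start of GENCODE v44, so such shares depend on the start used. It lies 464 bases from it in ZFAS1, 1259 in SNHG12, 199 in SNHG5, 42896 in TAF1D and 4190 in RACK1. With the C allowed within 10 bases of the start, the share was 66.7% (16 of 24) against 33.8% of the promoters of tested genes. CACGTG, a palindrome that reads the same on both strands, lay in 2 of the 24 promoter windows, or 8.33%, and in 10.1% of those of all tested genes. Of the 7 genes with the tract at the first base, ZFAS1 and SNHG5 were higher after METTL16 silencing, SNHG4 was lower and the other 4 did not pass the test, by the values given below.

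Libraries held between 15725298 and 18054436 counted reads. METTL16 (chr17:2405562-2511891) had 1546, 1641 and 1764 counts in si-NC and 571, 528 and 627 in si-METTL16. Its level fell from 96.2 ± 4.58 to 34.5 ± 0.547 CPM (read counts scaled to library size after TMM, mean ± SD, n = 3), to 35.9% of control with an adjusted p of 9.24e-05. KRT8, KRT18 and VIM were high in every library and KRT19, KRT7 and CDH1 were lower in si-METTL16. EPCAM (log2 0.44, adjusted p 0.203), KRT18 (log2 0.20, adjusted p 0.195) and VIM (log2 0.10, adjusted p 0.496) did not pass. Neither did KRT8 (log2 -0.23, adjusted p 0.224). Both fibroblast collagens, COL1A1 and COL3A1, were higher, with a summed level of 331 to 382 CPM in si-NC and 814 to 854 CPM in si-METTL16, and their part in the results below was not tested. Summed markers of blood cells, endothelium, islets and acinar cells stayed below 1 CPM in every library, with CD3E, GCG and CPA1 at 0 throughout. In bulk samples, fewer cells that express a gene and less RNA per cell cannot be told apart.

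Host genes differed between the groups in both directions. Of the 27 tested, 8 were higher in si-METTL16 (SNHG1, SNHG17, SNHG10, ZFAS1, SNHG15, SNHG6, SNHG5 and GAS5), 4 were lower (SNHG9, RC3H2, SNHG4 and SNHG14) and 15 did not pass the test. The test was edgeR's quasi-likelihood test on the counts, with Benjamini-Hochberg adjustment over all 16461 genes tested and a threshold of 0.05. The called share was 44.4% of the host genes, against 32.3% of all genes tested. By direction, 29.6% of the host genes were higher against 16.6% of all genes, and 14.8% were lower against 15.7%. The median log2 fold change of the host genes was 0.15, with 17 of 27 above 0, while that of all genes tested was -0.0036. The host median moved with single libraries, to -0.0075 without si-NC replicate 3 and 0.21 without si-NC replicate 1. In 18 host genes the 3 si-NC and the 3 si-METTL16 libraries did not overlap, 12 of them higher and 6 lower, which is 66.7% against 48.3% of all genes (24.3% higher and 24% lower). The plot of every library shows these levels.

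**Figure D1:**
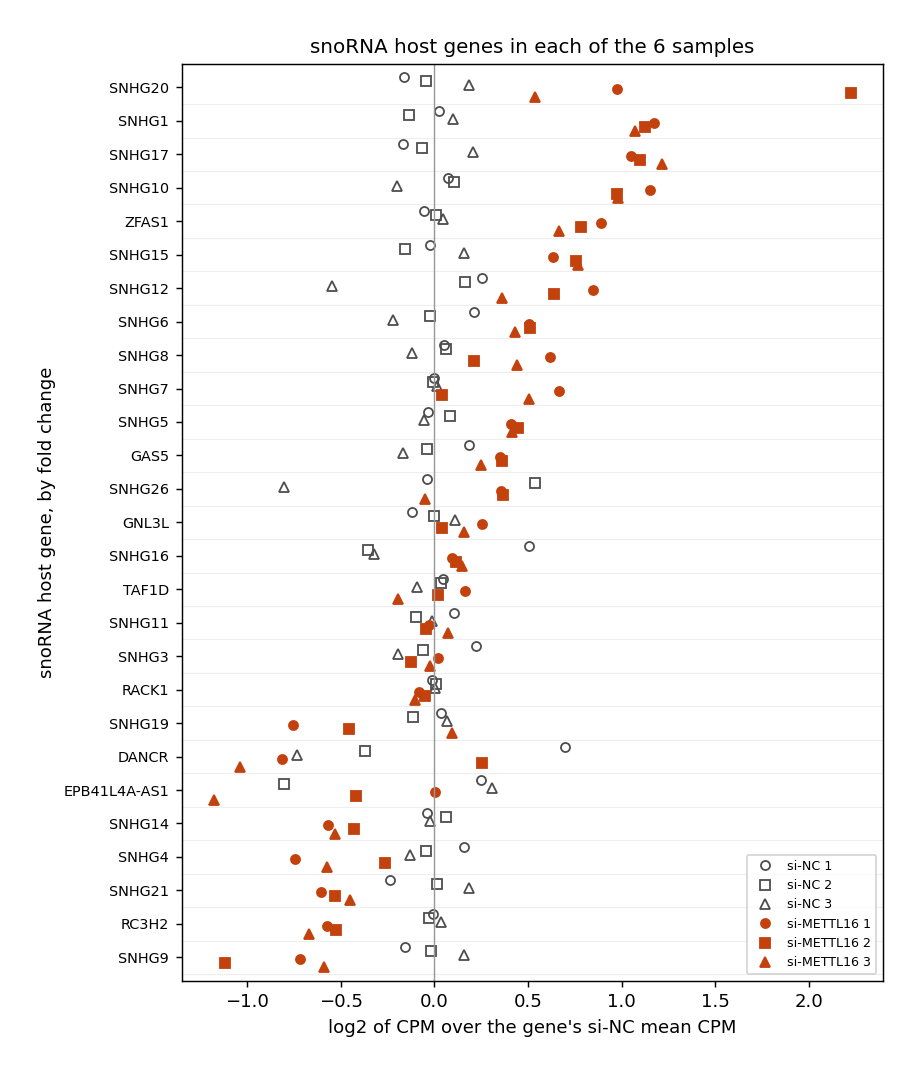
Level of each of the 27 tested snoRNA host genes in the 6 samples, as the log2 of its CPM over the mean si-NC CPM of that gene; open symbols are si-NC and filled symbols si-METTL16, with circle, square and triangle for replicates 1, 2 and 3. The filled symbols of SNHG1, SNHG17 and SNHG10 lie near 1 on this scale, apart from the open ones, while those of SNHG16, DANCR and EPB41L4A-AS1 mix with them.

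Among the noncoding hosts of box C/D snoRNAs, SNHG1 was the most changed. SNHG1 (chr11:62851988-62855914) holds 8 box C/D snoRNAs in RefSeq, SNORD22 and SNORD25 to SNORD31. Its CPM was 28.5, 25.4 and 29.9 in si-NC and 63, 60.9 and 58.8 in si-METTL16. All 3 si-METTL16 libraries stood above all 3 controls, and the gap was wide against the spread within either group. The mean rose from 27.9 ± 2.29 to 60.9 ± 2.1, a 2.18-fold change (log2 1.12, SE 0.09, adjusted p 0.000218).

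ZFAS1 (chr20:49278178-49295738), which starts next to ZNFX1 on the opposite strand and carries SNORD12, SNORD12B and SNORD12C, rose as well. Its CPM was 63.5, 66.2 and 67.9 in si-NC and 122, 113 and 105 in si-METTL16, without overlap. The level rose 1.72-fold (log2 0.78, SE 0.08, adjusted p 0.000509). SNHG5 (chr6:85660950-85678748), the host of SNORD50A and SNORD50B, had 96.4, 104 and 94.9 CPM in si-NC and 131, 134 and 131 in si-METTL16. The 3 silenced libraries lay close together and above every control, a 1.34-fold rise (log2 0.42, SE 0.06, adjusted p 0.00249).

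SNHG6 (chr8:66921684-66926398), the host of SNORD87, measured 36.1, 30.7 and 26.8 CPM in si-NC and 44.3, 44.4 and 42 in si-METTL16. The controls were the more scattered group, and the 1.40-fold rise (log2 0.48, SE 0.12) had an adjusted p of 0.018. It no longer passed without si-NC replicate 2 (log2 0.47, adjusted p 0.0547) or without si-METTL16 replicate 2 (log2 0.47, adjusted p 0.0538). GAS5 (chr1:173863900-173868882), a growth arrest transcript and a known substrate of nonsense-mediated decay, holds 10 box C/D and 1 box H/ACA snoRNA. Its CPM was 63.1, 53.9 and 49.4 in si-NC and 70.9, 71.3 and 65.9 in si-METTL16. The groups did not overlap but lay close to each other, and the 1.25-fold rise (log2 0.32, SE 0.10) had an adjusted p of 0.0482. The GAS5 call was kept only without si-NC replicate 1 when single libraries were left out, and the log2 fold change without each of the other 5 lay between 0.24 and 0.35 with adjusted p from 0.069 to 0.129.

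SNHG14 (chr15:24978583-25419462) went the other way. It is a long imprinted transcript whose annotated span overlaps UBE3A on the opposite strand. Whether it extends that far in these cells was not tested. Of the 152 snoRNAs and scaRNAs annotated inside the host genes, 83 lie in SNHG14, all of the box C/D kind. Its CPM was 73.1, 78.4 and 74 in si-NC and 50.7, 55.9 and 52 in si-METTL16. Every silenced library was below every control, and the level fell to 70.4% of control (log2 -0.51, SE 0.07, adjusted p 0.00204). The imprinted SNRPN, which shares 141 bases with it on the same strand, was also lower (log2 -0.53, SE 0.15, adjusted p 0.0306), as was PWAR6 (log2 -0.83, SE 0.24, adjusted p 0.0322), of which 4618 bases lie within the SNHG14 span, so that reads of these genes and of SNHG14 may be shared. UBE3A, the ubiquitin ligase on the opposite strand, had a log2 fold change of 0.41 with an adjusted p of 0.0504, and its libraries did not overlap.

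The remaining tested noncoding hosts of box C/D snoRNAs did not pass. SNHG16 (chr17:76557766-76565348), which carries SNORD1A, SNORD1B and SNORD1C, had 111, 61.4 and 62.9 CPM in si-NC and 83.8, 85 and 86.9 in si-METTL16. The silenced libraries agreed within a ratio of 1.04, while the control libraries spanned a ratio of 1.82, higher than in 93% of the 12982 genes with 200 or more counts. With all samples the log2 fold change was 0.12 (SE 0.22, adjusted p 0.721), and without si-NC replicate 1 it was 0.45 (adjusted p 0.00653), so that the 1 high control library decided the call. SNHG12, which hosts both kinds of snoRNA, had 4.08, 3.83 and 2.34 CPM in si-NC and 6.15, 5.32 and 4.39 in si-METTL16 (log2 0.63, SE 0.26, adjusted p 0.101), without overlap. SNHG26, near 1 CPM in both groups, and SNHG19 overlapped between groups, with log2 values of 0.24 (adjusted p 0.681) and -0.32 (adjusted p 0.37).

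Hosts of box H/ACA snoRNAs changed in both directions too. SNHG17 (chr20:38420588-38435353), which holds 4 H/ACA snoRNAs of the SNORA71 family, had 7.27, 7.77 and 9.4 CPM in si-NC and 16.9, 17.4 and 18.9 in si-METTL16. Its groups stood far apart, at 8.15 ± 1.11 and 17.7 ± 1.05, a 2.18-fold rise (log2 1.12, SE 0.13, adjusted p 0.000916). SNHG11, its neighbour on the chromosome and the host of SNORA71E and SNORA60, overlapped between groups, at 4.2, 3.65 and 3.87 CPM in si-NC and 3.84, 3.78 and 4.11 in si-METTL16 (log2 0.00, SE 0.16, adjusted p 0.994). SNHG15 (chr7:44983023-44986961), the host of SNORA9, had 15.1, 13.8 and 17.2 CPM in si-NC and 23.9, 26 and 26.1 in si-METTL16. No silenced library came near a control, and the rise was 1.65-fold (log2 0.72, SE 0.11, adjusted p 0.00268).

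SNHG4 and SNHG9 were the lower H/ACA hosts, with calls close to the threshold. SNHG4 (chr5:139274102-139284899), the host of SNORA74A and SNORA74D, had 16.5, 14.4 and 13.5 CPM in si-NC and 8.83, 12.3 and 9.95 in si-METTL16, or 70.1% of control (log2 -0.51, SE 0.15, adjusted p 0.0405). SNHG9 (chr16:1964959-1965509), the host of SNORA78, was low throughout, at 2.25, 2.47 and 2.79 CPM in si-NC and 1.52, 1.15 and 1.67 in si-METTL16, or 58.1% of control (log2 -0.78, SE 0.25, adjusted p 0.0472). Neither overlapped between groups. With single libraries left out, the SNHG9 call was lost each time (adjusted p 0.0624 to 0.13), and that of SNHG4 was lost with each of the 6 except si-METTL16 replicate 2 (adjusted p 0.0564 to 0.107).

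SNHG8, SNHG7 and SNHG3 did not pass. SNHG8, the host of SNORA24, had 9.69, 9.77 and 8.6 CPM in si-NC and 14.4, 10.8 and 12.7 in si-METTL16 (log2 0.43, SE 0.14, adjusted p 0.0504). SNHG7, the host of SNORA17A and SNORA17B, had 15.5, 15.4 and 15.7 CPM in si-NC and 24.6, 16 and 22 in si-METTL16 (log2 0.43, SE 0.16, adjusted p 0.0811). In both genes the lowest silenced library was replicate 2, just above the controls. Without that library the adjusted p was 0.0326 for SNHG8 (log2 0.53) and 0.0111 for SNHG7 (log2 0.58). SNHG3, the host of SNORA73A and SNORA73B, had 30, 24.6 and 22.5 CPM in si-NC and 26, 23.6 and 25.2 in si-METTL16, which overlapped (log2 -0.04, SE 0.12, adjusted p 0.825).

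DANCR and EPB41L4A-AS1 varied more within groups than between them. DANCR (chr4:52712404-52720351), the host of SNORA26 and a noncoding RNA named for its part in blocking differentiation, had 16.3, 7.77 and 6.04 CPM in si-NC and 5.72, 12 and 4.89 in si-METTL16. One library in each group was the high one, and the ratio of highest to lowest was 2.70 in si-NC, above 97.7% of the 12982 genes, and 2.45 in si-METTL16. EPB41L4A-AS1 (chr5:112160526-112164276), the host of SNORA13, had 18.7, 9.01 and 19.4 CPM in si-NC and 15.8, 11.7 and 6.95 in si-METTL16, with ratios of 2.16 and 2.27. The median ratio over those genes was 1.18 in each group. The log2 fold changes were -0.42 (SE 0.46, adjusted p 0.528) for DANCR and -0.45 (SE 0.37, adjusted p 0.385) for EPB41L4A-AS1. Leaving out single libraries moved DANCR from -0.92 to 0.11.

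**Figure D2:**
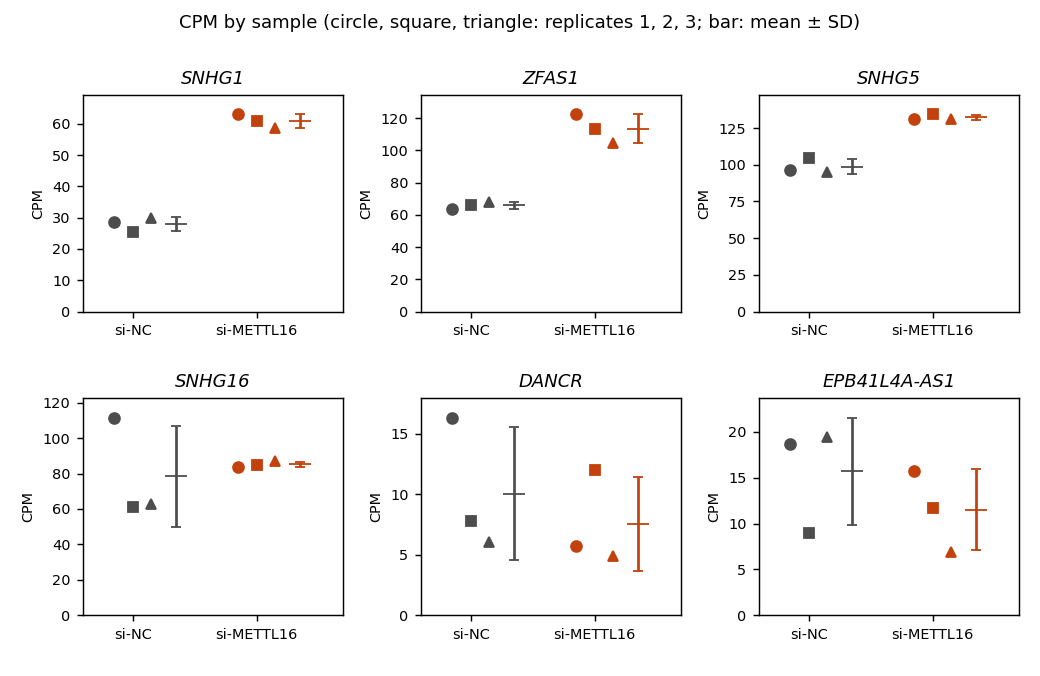
CPM by sample for 3 hosts that rose (SNHG1, ZFAS1, SNHG5) and 3 with wide spread within a group (SNHG16, DANCR, EPB41L4A-AS1); circle, square and triangle are replicates 1, 2 and 3, and the bar beside them is the mean ± SD (n = 3). Axes start at 0. The groups stand apart in the upper row, and in the lower row 1 control library of SNHG16 and of DANCR lies far above the other controls, as does 1 control library of EPB41L4A-AS1 far below.

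The hosts of scaRNAs were of low abundance. SNHG10 (chr14:95532297-95534872), the host of SCARNA13, had 2.13, 2.18 and 1.77 CPM in si-NC and 4.51, 3.98 and 4 in si-METTL16. The groups were well separated despite counts between 31 and 74 per library, and the level rose 2.05-fold (log2 1.04, SE 0.19, adjusted p 0.00646). SNHG20, the host of SCARNA16, had 1.3, 1.41 and 1.65 CPM in si-NC and 2.86, 6.8 and 2.11 in si-METTL16. Its groups did not overlap, but the silenced libraries spanned a ratio of 3.22, and the log2 value of 1.42 (SE 0.46), the largest of the set, had an adjusted p of 0.0501. Without si-METTL16 replicate 2, the high library, the log2 value was 0.76 (adjusted p 0.103), and without si-METTL16 replicate 3 it was 1.72 (adjusted p 0.0245). SNHG21, the host of SCARNA15, had 2.13, 2.53 and 2.85 CPM in si-NC and 1.64, 1.73 and 1.83 in si-METTL16, lower without overlap but not past the threshold (log2 -0.53, SE 0.22, adjusted p 0.117).

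Of the 4 protein-coding genes of the set, RC3H2 was called and the other 3 were not. RC3H2 (chr9:122844556-122905341) encodes Roquin-2, an RNA-binding ubiquitin ligase, and carries SNORD90. Its CPM was 148, 146 and 153 in si-NC and 100, 104 and 93.9 in si-METTL16. The groups were far apart against their spread, and the level fell to 66.6% of control (log2 -0.59, SE 0.06, adjusted p 0.000667). RACK1, a scaffold protein of the small ribosomal subunit and the highest of the set per length, had 572, 581 and 579 CPM in si-NC and 546, 557 and 538 in si-METTL16, which did not overlap but differed by a log2 value of -0.08 (SE 0.04, adjusted p 0.212).

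TAF1D, a subunit of the RNA polymerase I selectivity factor, had 70.3, 69.8 and 63.8 CPM in si-NC and 76, 68.8 and 59.4 in si-METTL16 (log2 0.00, SE 0.10, adjusted p 0.985). GNL3L, a nucleolar GTPase with no snoRNA annotated inside it in RefSeq, had 40.2, 43.6 and 47 CPM in si-NC and 51.9, 44.9 and 48.6 in si-METTL16 (log2 0.15, SE 0.09, adjusted p 0.247). Both overlapped between groups.

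**Figure D3:**
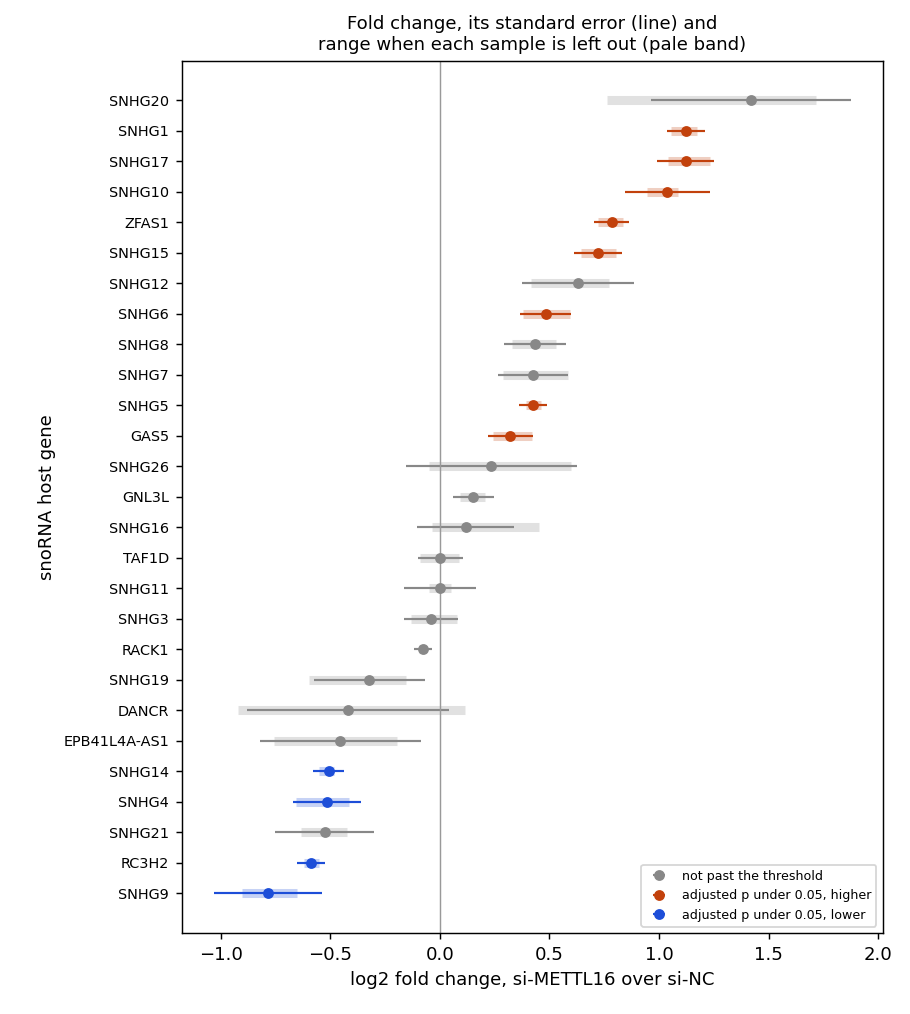
Log2 fold change of the 27 tested hosts, si-METTL16 over si-NC (edgeR), as points with their standard error as lines; the pale band is the range when each of the 6 samples is left out. Red points were higher and blue points lower at an adjusted p under 0.05, and grey points did not pass; the bands of DANCR, SNHG20 and SNHG16 are wide and those of SNHG1, SNHG5 and RC3H2 narrow.

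The calls fell on hosts of every kind of guide RNA, where 16.6% of all genes tested were higher and 15.7% lower; differences between the classes were not tested. Of the 8 tested noncoding hosts with box C/D snoRNAs alone, 4 were higher, 1 was lower and 3 did not pass. Of the 10 with box H/ACA snoRNAs alone, 2 were higher, 2 lower and 6 did not pass, near the 32.3% called among all genes. GAS5 was higher and SNHG12 did not pass among the 2 hosts of both kinds, and of the 3 scaRNA hosts only SNHG10 passed. Levels between genes were compared per length. By deposited FPKM (fragments scaled to gene length and library size) averaged over the 6 samples, RACK1 was highest with 35.6, then ZFAS1 with 31, SNHG6 with 18.1, GNL3L with 14.8 and SNHG5 with 10.6. That order depends on the length used: in 13 of the 32 genes the length implied by count and FPKM was longer than the genomic span of the gene, as in SNHG1 (14273 against 3927 bases), and by CPM per kilobase of GENCODE v44 exons SNHG16, GAS5 and SNHG1 ranked 3, 4 and 5 instead of 8, 10 and 15.

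Another 5 genes of the set were too low to test. SNHG28 had 17, 2 and 0 counts in si-NC and 0, 0 and 10 in si-METTL16, each group resting on 1 library. SNHG22 had 9 counts in all, SNHG25 had 6, SNHG18 had 1 and SNHG27 had 0. At these depths a count of 0 allows up to 0.166 to 0.191 CPM in a library (3 counts, counting error only), and smaller levels were not detectable.

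The guide RNAs themselves were hardly counted. RefSeq places 152 snoRNAs and scaRNAs inside 29 of the 32 genes, 120 of them box C/D, 28 box H/ACA and 4 scaRNAs. The table lists 140 genes of this kind there, of which 55 had no count, 81 had 1 to 29 counts and 4 had 30 or more. Of the 85 with a count, 24 held exactly 1 count in each of the 6 libraries, as did 338 of the 28883 genes with a count in the whole table, so that no level is read from them. SNORA8 in TAF1D had 41, 35 and 33 counts in si-NC and 28, 17 and 26 in si-METTL16 (log2 -0.58, SE 0.27, adjusted p 0.141). SNORA73B in SNHG3 had 5, 6 and 6 against 8, 7 and 9 (log2 0.53, SE 0.39, adjusted p 0.363). Neither overlapped between groups, and neither passed the test. SNORA25 in TAF1D had 36 counts in all, and SNORA18 in TAF1D rested on 1 library in each group, with 1, 78 and 1 counts in si-NC and 1, 1 and 80 in si-METTL16. All 139 bases of SNORA8, all 134 of SNORA25 and all 132 of SNORA18 lie in annotated TAF1D exons. Reads of these snoRNAs may thus be those of the host. In SNHG1, SNORD26 had 1 count in every control and 8, 8 and 3 in si-METTL16, below the filter. All 75 bases of SNORD26 lie in annotated SNHG1 exons, so its reads may be those of the host. SNORD27 had 1, 4 and 2 counts in si-NC against 6, 1 and 1 in si-METTL16. SNORD30 had 1, 1 and 3 against 1, 2 and 3, and SNORD22, SNORD25 and SNORD28 had 1 in every library.

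Several hosts overlap other genes, and whether reads were counted by strand is not given in the sources used here, so reads of such pairs may be shared. ZFAS1 overlaps ZNFX1 on the opposite strand, which did not pass (log2 0.04, adjusted p 0.595). SNHG10 overlaps GLRX5 on the opposite strand, a mitochondrial glutaredoxin gene that was also higher (log2 0.45, SE 0.09, adjusted p 0.00702). Around hosts that were not called, several overlapping genes passed. SEC14L1, on the strand of SNHG20, was lower (log2 -1.005, SE 0.06, adjusted p 0.000131), DIPK1B opposite SNHG7 was lower (log2 -1.62, SE 0.18, adjusted p 0.000712), and AC015802.6 opposite SNHG16 was lower on 259 counts (log2 -1.08, SE 0.34, adjusted p 0.0479). EPB41L4A, opposite EPB41L4A-AS1, was lower on 186 counts (log2 -1.39, SE 0.35, adjusted p 0.0221). CEP295 opposite TAF1D was higher (log2 0.52, SE 0.10, adjusted p 0.00739), as was AC008443.1 opposite RACK1 (log2 0.72, SE 0.15, adjusted p 0.0112). MATR3, on the strand of SNHG4, had a log2 value of -0.37 (adjusted p 0.124), and the overlapping RCC1 (SNHG3), ZBTB37 (GAS5), MCMDC2 (SNHG6), SIL1 (SNHG4), TRNAU1AP (SNHG12), AC105339.2 (SNHG21) and MED17, C11orf54 and AP001273.2 (TAF1D) did not pass, nor did PWAR5, AC124312.1 and AC124312.5 inside SNHG14, or AL590560.1, AL590560.2 and MYO5B beside the untested SNHG28 and SNHG22. SNHG1, SNHG17, SNHG15, SNHG5, RC3H2, SNHG9 and DANCR overlapped no gene of 30 or more counts.

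The letters TACAGAGAA occur in annotated transcripts of 3 of the 27 tested hosts, which is 11.1%. The share was 5.36% of all tested genes (877 of 16353 in GENCODE v44, transcript strand only). The median length of the longest transcript was 3241 bases in the hosts and 3395 in all of these genes. A gene was counted where any of its annotated transcripts matched. The number of transcripts per gene and the total length searched were not compared. The sites are printed because they name where a match lies, with the motif in capitals and 10 bases on either side, from GENCODE v44 on GRCh38.
SNHG1: aagatttctaTACAGAGAAagggagtaat
SNHG8: tgacaaaggcTACAGAGAAtatgaagatt
SNHG14: cactaaaaagTACAGAGAAatatagctaa
SNHG14: ccagacaaaaTACAGAGAAaaatccatga
The SNHG1 match lies in 22 of its 80 annotated transcripts, those of SNHG14 in 3 of 142 and that of SNHG8 in 1 of 15. That SNHG8 match is at base 2311 of a transcript of 6166 bases. It lies beyond the end of SNHG8 in the deposited coordinates, which span 1115 bases. SNHG1 was higher, SNHG14 lower and SNHG8 not past the threshold. A match of letters is a description of the annotated sequence and does not show a methylated site.

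Proteins that bind and assemble these guide RNAs were examined as lists, to be read against 16.6% higher, 15.7% lower and a median of -0.0036 over all genes tested. Of the 4 box C/D core proteins, fibrillarin (FBL), the methyltransferase, was higher (log2 0.35, SE 0.06, adjusted p 0.00577) and NOP58 was lower (log2 -0.30, SE 0.09, adjusted p 0.0477), with a list median of 0.07. Of the 4 box H/ACA proteins, GAR1 was higher (log2 0.32, SE 0.10, adjusted p 0.0419), the other 3 did not pass, and the median was 0.03. Of 12 tested assembly factors, 6 were higher (against 16.6% of all genes), 1 was lower and 5 did not pass, with a median of 0.27. NOLC1, a chaperone of snoRNPs in the nucleolus, had a log2 value of 0.98 (SE 0.16, adjusted p 0.00342), the AAA+ ATPase RUVBL2 0.60 (SE 0.07, adjusted p 0.000829) and the box C/D assembly factor ZNHIT6 0.29 (SE 0.07, adjusted p 0.0167), while RPAP3, of the R2TP chaperone complex, fell (log2 -0.28, SE 0.06, adjusted p 0.0108).

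Nonsense-mediated decay is the pathway that removes many spliced host transcripts. Of its 12 factors, 4 were higher, 2 lower and 6 did not pass, with a median of 0.04, where 32.3% of all genes tested were called. UPF1, the central helicase, was higher (log2 0.34, SE 0.07, adjusted p 0.0129), as was UPF3B (log2 0.59, SE 0.08, adjusted p 0.0014). SMG1, the kinase of UPF1, was lower (log2 -0.24, SE 0.05, adjusted p 0.0108).

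Protein-coding hosts outside the set were examined for comparison. Of 24 ribosomal protein genes that host snoRNAs, 10 were lower, 2 were higher and 12 did not pass, with a median log2 value of -0.11, where 15.7% of all genes were lower and 16.6% higher. RPL23A (log2 -1.38, SE 0.08, adjusted p 0.000128), RPL3 (log2 -0.99, SE 0.11, adjusted p 0.000707), RPS12 (log2 -0.61, SE 0.06, adjusted p 0.00038) and RPL12 (log2 -0.43, SE 0.05, adjusted p 0.00113) were among the lower ones. Ribosomal protein genes have many near-identical pseudogenes, which makes their counts uncertain. Of 30 other protein-coding hosts, 5 were higher, 5 lower and 20 did not pass, with a median of 0.13, a called share close to the 32.3% of all genes. The mitochondrial chaperone HSPA9 (log2 0.63, SE 0.07, adjusted p 0.000561) and the nuclear import receptor IPO7 (log2 0.28, SE 0.04, adjusted p 0.00259) were higher, and TPT1 (log2 -0.48, SE 0.06, adjusted p 0.00174) and TOMM20, of the mitochondrial import receptor (log2 -0.32, SE 0.05, adjusted p 0.00297), were lower. Over the 84 tested genes of all these lists, each counted once, 19 were higher and 19 lower, against 16.6% and 15.7% of all genes. Differences between the lists and the host genes were not tested.

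**Figure D4:**
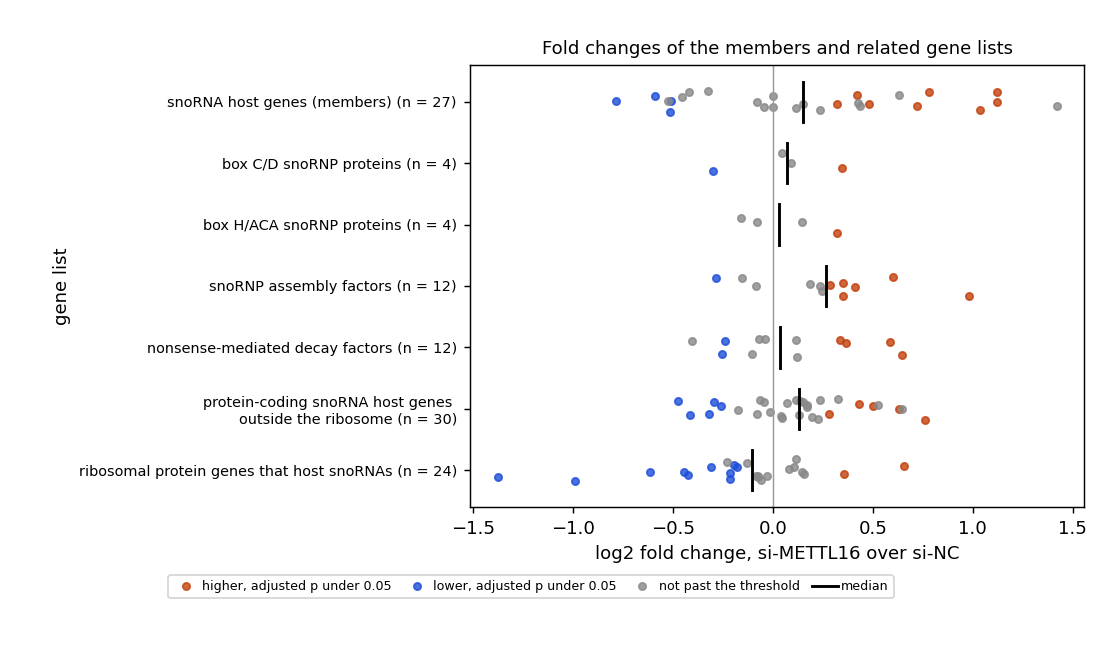
Log2 fold change, si-METTL16 over si-NC (edgeR), of each tested gene in the snoRNA host set and in 6 related lists, with the list median as a black bar; points are spread vertically only for legibility. Red and blue points passed an adjusted p under 0.05; the median was 0.15 for the host genes and -0.11 for the ribosomal protein genes that host snoRNAs.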

How the data were processed

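RNA of PANC-1 cells, 3 si-NC and 3 si-METTL16 samples, was measured by RNA-seq. The authors deposited raw read counts per gene (whole numbers, not normalized) and FPKM values per gene in 1 table with GRCh38 coordinates. The submitters' processing notes name HISAT2 2.0.4 and StringTie 1.3.0, without their role; use of strand is not given in the sources used here. Groups and replicate numbers were taken from the sample titles.

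All genes with 30 or more counts over the 6 samples entered edgeR 4.0.16 in R 4.3.3 (TMM scaling, glmQLFit, then glmQLFTest), with Benjamini-Hochberg adjustment over all of them and a threshold of 0.05. The count test was the main one although the study names limma, which served as an alternative. Standard errors were derived from the log2 fold change and its F statistic, and CPM from TMM-scaled library sizes. The procedure was run on simulated data drawn from the fitted model, with 200 changed genes against 5325 genes called here. Such a run checks the code and not how well the model describes these data. The common biological coefficient of variation was 17.6%; with 3 samples per group and low counts, small changes of rare genes are not resolved.

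The host genes and the 6 gene lists were chosen with earlier results of these data known. Every host gene was described; in each list up to 4 called genes of lowest adjusted p were named, and genes overlapping a host were named where they were tested; some genes that this rule takes are not reported here. Protein-coding EIF4A2 was read as outside the set and GNL3L as inside it. Of the gene identifiers, 99.1% were found in GENCODE v44, whose transcripts gave the motif matches; 7 of the 32 hosts have the same start and end there. Positions of genes are those of the table, and those of printed start windows are from RefSeq GRCh38.p14. One assembly factor, NOPCHAP1, was not analysed here.

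Alternatives were a replicate block, leaving out samples singly, omitting the count filter, filterByExpr (minimum count 10, minimum total 15), 10 counts in every sample, DESeq2 size factors, total counts scaling, the Wald test of DESeq2 1.42.0, limma 3.58.1 on voom values and on log2(FPKM + 1) and log2(FPKM + 0.1), and a threshold of 0.01.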

Additional observations from a re-analysis of the deposited data

How the results depend on the processing

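Of the 12 called hosts, SNHG1, SNHG17, SNHG10, ZFAS1, SNHG15, SNHG5, SNHG14 and RC3H2 passed under all 17 alternatives, as did METTL16, and SNHG6 (14 of 17), SNHG4 (9), GAS5 (7) and SNHG9 (7) did not. Of the hosts not called, SNHG8 passed in 5 alternatives, SNHG20 in 4 and SNHG7, SNHG16 and SNHG21 in 1 each. The number of higher hosts was 8, and 6 to 9 with single samples left out. The number of lower hosts was 4; it was 2 with no low-count filter and 2 with a threshold of 0.01, and 2 to 3 with single samples left out. The median of the hosts ranged from -0.0075 to 0.21 with single samples left out, below 0 only without si-NC replicate 3. At a threshold of 0.01, 2928 of all genes were called, and of the list genes 11 were higher and 9 lower. With single samples left out, 12 to 17 list genes were higher and 14 to 17 lower.

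With the replicate block, 2 hosts were lower, SNHG4 (adjusted p 0.0693) and SNHG9 (adjusted p 0.0802) being lost, and 4895 genes were called in all, 4610 of them shared. Samples with the same number deviated together only weakly (correlations 0.042, 0.07 and 0.052). Samples with different numbers gave correlations of -0.049 to -0.0046, below each same-number value. The main test did not take the numbers as pairs, and whether they mark pairs was not tested.

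Some hosts changed sign, and not all of them lay near 0 in the main fit. DANCR (log2 -0.42) did so only without si-NC replicate 1, and SNHG26 (log2 0.24) only without si-NC replicate 3. TAF1D was -0.0026 with the replicate block, -0.0197 with total counts scaling, -0.0054 with limma voom, -0.018 on log2(FPKM + 1), -0.024 on log2(FPKM + 0.1), and -0.088 to 0.089 with single samples left out. SNHG11 was -0.00057 with no filter, -0.0201 with total counts scaling, -0.0062 and -0.016 on the 2 FPKM scales, and -0.051 to 0.051 with single samples left out. With single samples left out, SNHG3 ranged from -0.13 to 0.079, DANCR from -0.92 to 0.11, SNHG16 from -0.037 to 0.45 and SNHG26 from -0.048 to 0.60. The cause was not tested. Low hosts are limited by depth, since 3 counts equal 0.166 to 0.191 CPM.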
